A study of Mus musculus with 12 samples.

Results

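The genes described are those of the mitochondrial respiratory chain and the ATP synthase, taken by name. A gene was a member if its array symbol began with Nduf, Uqcr, Cox4 to Cox8 or Atp5, or was Sdha, Sdhb, Sdhc or Sdhd, and 89 of the 19938 genes with a row of their own met this. They comprised 34 subunits of complex I, 7 complex I assembly factors (Ndufaf1 to Ndufaf7), 4 subunits of complex II, 8 of complex III, 19 genes of complex IV and 17 of the ATP synthase. Of these, 87 were bright enough to be tested; Cox7b2 and Cox8b, isoform genes of complex IV, were not. Cox7c and Ndufb4 had only rows shared with other symbols and were not analysed here, and neither were the subunits encoded by mitochondrial DNA.

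Expression was measured on Affymetrix Mouse Gene 1.0 ST arrays in sorted cells from the thymus of C57/BL6 mice. Wild-type DN3 thymocytes (3 arrays) and TCF-1 KO DN3 thymocytes (3 arrays) came from mice of 8 to 12 weeks. T cell lymphoma cells (6 arrays) came from TCF-1 KO mice of 12 to 40 weeks that had developed the disease, so age differed between the lymphomas and both DN3 groups, and genotype between the lymphomas and wild-type cells. DN3 thymocytes are immature T cells without CD4 or CD8, at the stage of T cell receptor beta rearrangement, and TCF-1 is a transcription factor of the early T lineage. All arrays are labelled as biological replicates, with no word on litters or cages, so a p-value reflects only the spread seen among these arrays.

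The respiratory chain passes electrons from NADH (through complex I) and succinate (through complex II) to ubiquinone, on to cytochrome c through complex III, and to oxygen through complex IV. Complexes I, III and IV pump protons across the inner mitochondrial membrane, and the ATP synthase uses their return flow to make ATP. Most subunits are encoded in the nucleus, and several subunits of complex IV exist as paired genes of which one is broadly expressed and the other is restricted to tissues such as heart, skeletal muscle, lung or testis. Proliferating thymocytes and T cell lymphomas use both glycolysis and respiration.

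Values are log2 signals, so a difference of 1 is a 2-fold change, and the arrays were scaled to a common distribution, so each value is relative to the other genes of its array. In bulk RNA, fewer cells of a type and less RNA per cell cannot be told apart. A gene was called at a limma adjusted p under 0.05 (Benjamini-Hochberg, over all 14953 genes tested). The arrays were divided into 2 sets that no label names. Rows without a gene name that separated arrays by at least 1 log2 unit were used, and the most frequent parting (34 rows) was taken. The next most frequent set apart lymphomas 1 and 2 (27 rows), lymphomas 1 to 3 (14) and KO replicates 1 and 3 (10). Over the 34 rows the median log2 signal was 6.02 to 6.35 on the smaller set and 8.34 to 9.04 on the other 8 arrays. The smaller set held replicate 1 of both DN3 groups and lymphomas 1 and 2. Each set held the same share of each group. Xist, the RNA of the inactive X chromosome, was at 4.13 to 4.40 on KO replicate 3 and lymphomas 1, 2 and 6, and at 10.10 to 10.58 on the other arrays. All 8 DN3 markers were above the brightness filter, which uses the mean over all arrays. Their mean log2 signal per array was 9.41 to 9.51 in wild-type cells, 9.11 to 9.34 in KO cells and 8.52 to 9.24 in lymphomas. Of the markers of other cells, the means of 5 B cell genes (3 of them below the filter) were 4.75 to 4.84, 4.86 to 4.93 and 4.58 to 4.70 in the same order. Those of 8 myeloid genes (2 below the filter) were 4.82 to 4.98, 4.97 to 5.14 and 4.93 to 5.01, and those of 8 stromal genes were 5.49 to 5.59, 5.63 to 5.77 and 5.31 to 5.52. The 4 measured erythroid genes had means of 5.32 to 5.58 over all arrays. The median signal of all rows on an array, with or without a gene name, was 5.30 to 5.39. The part of these markers in the results was not tested. The gene deleted in the KO mice was not analysed here.

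Few of these genes were called between the 3 groups, and most of them were called between the 2 array sets. Of the 87 tested members, 1 was called lower in KO than in wild-type DN3 cells (Cox6b2), where 1.99% of all genes were called. In lymphomas against wild-type DN3 cells 1 was called higher (Ndufa10), against 5.82% of all genes, and between lymphomas and KO DN3 cells none was, against 6.62%. Between the array sets 55 of the 87 were called, against 12.2% of all genes. The median share of a member's variance that lay between array sets was 57.3%, against 11.0% over all genes tested. The median share between groups was 10.3%, against 27.8%. The array sets were chosen from these data after seeing them, while the groups were given by the labels. The shares of sets and groups are thus not on equal terms. On the first principal component of the members, with 70.2% of their variance, the 4 arrays of the smaller set scored 1.87 to 3.99 and the other 8 scored -2.09 to -0.31.

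The promoters printed here are those of the members called between groups, Cox6b2 and Ndufa10, and of the pair with the largest difference between array sets, Ndufs5 and Uqcr10. Each is the 250 bases before the RefSeq gene start (GRCm38.p6, minus strand, 5′ to 3′): Cox6b2 at chr7:4753095-4753344, Ndufa10 at chr1:92473759-92474008, Ndufs5 at chr4:123718187-123718436 and Uqcr10 at chr11:4704345-4704594. Capitals mark the letters that matched a motif searched.
Cox6b2: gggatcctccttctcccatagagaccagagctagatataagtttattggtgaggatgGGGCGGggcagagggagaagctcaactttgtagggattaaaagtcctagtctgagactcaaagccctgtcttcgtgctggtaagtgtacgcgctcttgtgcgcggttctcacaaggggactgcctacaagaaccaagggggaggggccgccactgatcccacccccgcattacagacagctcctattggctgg
Ndufa10: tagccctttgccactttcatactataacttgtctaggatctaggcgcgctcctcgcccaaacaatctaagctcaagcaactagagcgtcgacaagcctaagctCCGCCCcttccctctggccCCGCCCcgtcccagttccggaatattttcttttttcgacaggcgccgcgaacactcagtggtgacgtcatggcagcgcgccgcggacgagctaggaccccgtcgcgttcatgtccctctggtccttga
Ndufs5: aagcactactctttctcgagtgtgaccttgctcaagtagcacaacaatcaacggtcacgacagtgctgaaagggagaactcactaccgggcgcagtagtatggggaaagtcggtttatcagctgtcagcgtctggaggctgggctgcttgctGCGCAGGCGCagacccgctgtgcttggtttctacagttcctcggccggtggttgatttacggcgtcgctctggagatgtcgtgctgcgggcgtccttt
Uqcr10: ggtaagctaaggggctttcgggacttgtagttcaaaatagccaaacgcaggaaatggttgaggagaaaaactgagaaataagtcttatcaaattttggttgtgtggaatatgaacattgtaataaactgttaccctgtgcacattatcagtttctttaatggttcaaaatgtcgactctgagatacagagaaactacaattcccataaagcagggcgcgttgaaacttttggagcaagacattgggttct

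Motifs were read on both strands in windows from 250 bases before to 50 after the start, which RefSeq gave for 73 of the 89 members and 27025 genes in all. The motif of NRF1, a regulator of nuclear genes for mitochondria, was searched as GCGCA and GCGC with any base between them, and lay in 18 members (24.7%) and 5.19% of all genes. The ETS motif of GABPA, CCGGAAG, lay in 18 (24.7%) and 9.93%, and the YY1 motif AAGATGGCG in 7 (9.59%) and 1.64%. The Sp1 motif GGGCGG lay in 33 (45.2%) and 38.2%. The TCF/LEF motifs CTTTGAT and CTTTGAA, the letters bound by the family of TCF-1, lay in 3 members (4.11%) and 9.88% of all genes. Of the 54 members called higher in the smaller array set 47 had a window, and 11 of these (23.4%) held the NRF1 motif and 13 (27.7%) the ETS motif. In the windows printed, Cox6b2 holds 1 Sp1 match, 193 to 188 bases before the start, and Ndufa10 holds 2 on the opposite strand. Ndufs5 holds the NRF1 match GCGCAGGCGC, 98 to 89 bases before the start, and Uqcr10 holds none. None of the 4 windows holds a TCF/LEF match. A match is a run of letters and not a measured binding site.

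**Figure D1:**
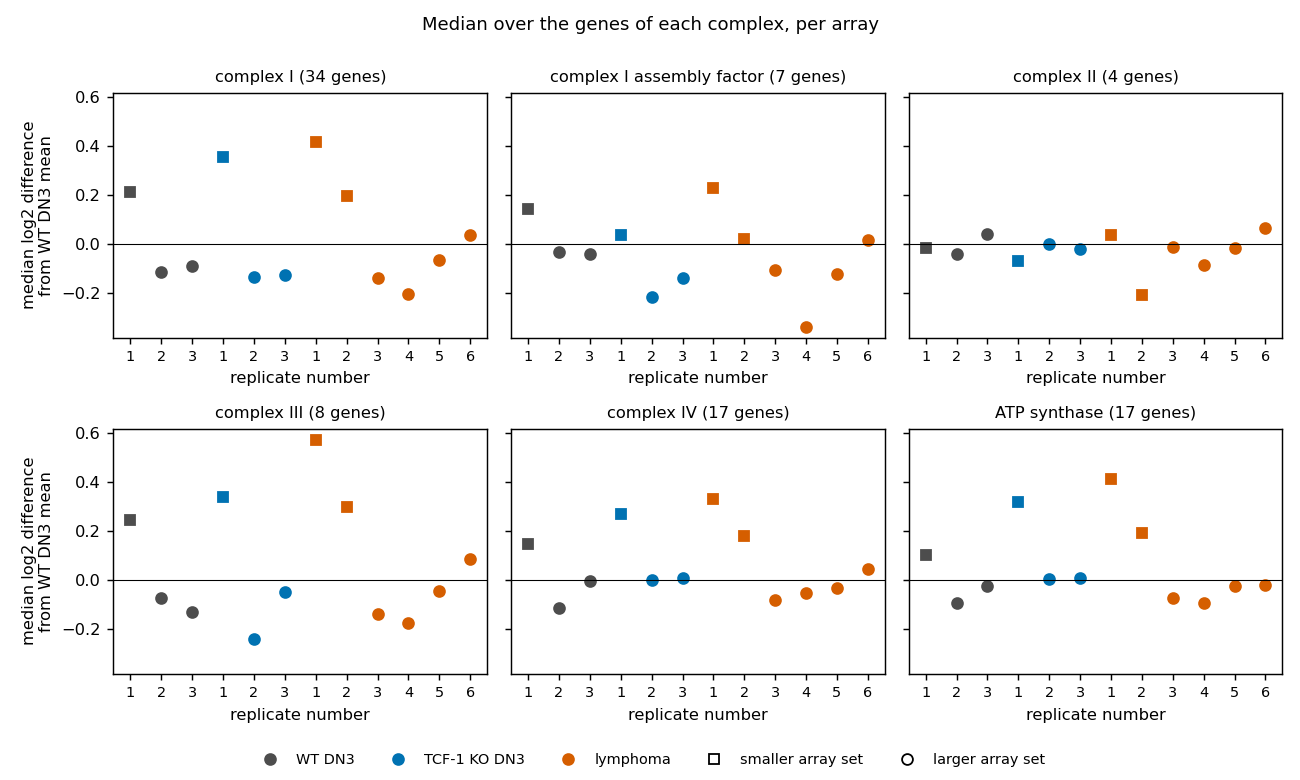
Median log2 difference from the wild-type DN3 mean over the genes of each complex (y axis), 1 point per array, ordered by replicate number within group (x axis). Squares are the smaller array set and circles the larger one; in complexes I, III, IV and the ATP synthase the 4 squares lie above all 8 circles, and in complex II they do not.

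Read per array against the wild-type mean, the median over the 34 complex I subunits was 0.21 on wild-type replicate 1, and -0.12 and -0.09 on replicates 2 and 3. The KO arrays gave 0.35, -0.14 and -0.13 for the same genes. The 6 lymphomas gave 0.41, 0.20, -0.14, -0.21, -0.06 and 0.04. The high arrays in each group were those of the smaller set. Complex III spread most, from -0.24 on KO replicate 2 to 0.57 on lymphoma 1. Complex II, the 1 complex that is also an enzyme of the TCA cycle, stayed between -0.09 and 0.06 on 11 arrays and was at -0.21 on lymphoma 2. The ATP synthase ranged from -0.09 to 0.41 and complex IV from -0.12 to 0.33. The complex I assembly factors, which build the complex without staying in it, ranged from -0.34 on lymphoma 4 to 0.23 on lymphoma 1. The same median over all genes tested stayed between -0.02 and 0.02 on every array.

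Set against wild-type cells of the same array set, the median over all tested members was 0.12, 0.00 and 0.03 on the 3 KO arrays. It was 0.21, -0.01, -0.04, -0.04, 0.03 and 0.12 on lymphomas 1 to 6. For KO replicate 1 and lymphomas 1 and 2 the wild-type cells were replicate 1 alone, so each of these values sets 1 array against 1. The remaining differences of single arrays were within 0.21 log2 units for the genes as a body, with lymphoma 1 the highest array.

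The first comparison asked which of these genes differ in DN3 cells that lack TCF-1. Only Cox6b2 was called. It encodes the testis-type isoform of subunit 6b, a small subunit on the intermembrane side of complex IV. Its log2 signal was 8.22, 7.38 and 7.37 in wild-type cells and 6.66, 6.19 and 6.41 in KO cells, and the arrays did not overlap. The fall was 1.24 (SE 0.22, 95% interval -1.72 to -0.76, limma adjusted p = 0.0167), or 2.36-fold. It was -1.56 within the smaller array set, which held only replicate 1 of both groups, and -1.08 within the larger one. Without wild-type replicate 1, the highest array, it was -0.96 (limma adjusted p = 0.0255). The call did not hold without KO replicate 3, where the difference was -1.23 (SE 0.26, limma adjusted p = 0.0886). The Xist class as a term gave the same test, since that was the 1 DN3 array with low Xist. With 1 fit to all 12 arrays the difference was again -1.24, with a larger SE of 0.32, and the call did not hold (adjusted p = 0.0598). Its broadly expressed partner gene, Cox6b1, was at 11.19, 10.97 and 11.10 in wild-type cells and 11.32, 11.09 and 11.09 in KO cells, and was not called. The marker means of 3 cell types did not overlap between these groups either. On the KO arrays those of stromal genes were higher (5.63 to 5.77 against 5.49 to 5.59), as were those of B cell genes (4.86 to 4.93 against 4.75 to 4.84), while those of DN3 genes were lower (9.11 to 9.34 against 9.41 to 9.51). Of these markers 1 was called, the DN3 gene Dntt, for terminal deoxynucleotidyl transferase, which fell by 0.69 log2 units (10.24 against 10.93, limma adjusted p = 0.0176). In a fit with the array set as a term, the DN3 gene Rag2 was also called lower (-0.50, limma adjusted p = 0.0234). The stromal gene Krt8 was then called higher (0.45, adjusted p = 0.0484). The part of these markers in the fall of Cox6b2 was not tested.

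Over all genes tested 1.99% were called in this comparison, and over the members 1 of 87. Of the members 52 had a difference above 0, with a median of 0.03, equal to the 0.03 over all genes. Leaving out 1 array moved the members' median from -0.08 to 0.12, so its direction was not stable. The 95% interval lay within 1 log2 unit of 0 for 85 of the 87 and within 0.5 for 53, so larger differences than these were outside the intervals of those genes. The arrays of the 2 groups did not overlap for 6 members: Cox4i2 and Cox8c with KO arrays above, and Cox6b2, Ndufs1, Sdhb and Ndufaf2 with KO arrays below. Over all genes 22% did not overlap.

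Wild-type and KO arrays of the same number deviated together, so a fit that blocks on this number was also made. It called 9.23% of all genes and 4 members: Cox6b2 (adjusted p = 0.000105) and Ndufaf4 (-0.39, adjusted p = 0.0404) lower, and Ndufa4l2 (0.46, adjusted p = 0.0264) and Ndufb3 (0.36, adjusted p = 0.0463) higher. Ndufa4l2, the hypoxia-induced relative of the complex IV subunit gene Ndufa4, was at 5.30, 4.89 and 5.01 in wild-type and 5.96, 5.11 and 5.50 in KO cells. The groups overlapped, and without the block the adjusted p was 0.284. Ndufaf4, an assembly factor, was at 8.43, 8.27 and 8.09 against 8.11, 7.73 and 7.79. With the array set as a term 5.04% of all genes were called and 1 member, Cox6b2 (adjusted p = 0.000218).

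Among the catalytic subunits, the difference between KO and wild-type cells was -0.31 for Ndufs1 (SE 0.12, limma adjusted p = 0.233), the largest iron-sulfur protein of complex I. It was -0.15 for Ndufv1, which binds NADH. In complex II, Sdhb, the iron-sulfur subunit, differed by -0.30 (SE 0.13, adjusted p = 0.272), with wild-type arrays at 8.06, 8.07 and 8.09 and KO arrays at 8.00, 7.67 and 7.66. The flavoprotein gene Sdha differed by -0.11 and the membrane anchors Sdhc and Sdhd by 0.08 and -0.02. In complex III the differences ran from -0.32 (Uqcrb) to 0.09 (Uqcr10), with the core protein gene Uqcrc1 at -0.07 and the Rieske protein gene Uqcrfs1 at 0.00. In the ATP synthase the catalytic head genes Atp5a1 and Atp5b differed by 0.00 and -0.04. The 3 genes for the same subunit c of the rotor ring, Atp5g1, Atp5g2 and Atp5g3, differed by 0.16, 0.30 and 0.25, and Atp5md by -0.24. None of these was called.

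The complex IV isoform genes were measured side by side, each on its own probes, so levels are not compared between genes. Cox4i2, the lung-type and oxygen-responsive partner of Cox4i1, was at 5.29, 5.34 and 5.38 in wild-type cells and 5.60, 5.68 and 5.57 in KO cells (0.28, limma adjusted p = 0.225). The groups did not overlap and the gene was not called. Cox4i1 differed by 0.13. The muscle-type genes Cox6a2 and Cox7a1 differed by 0.05 and -0.03, and their partners Cox6a1 and Cox7a2 by 0.19 and 0.01. Cox8c, a testis-type gene, was at 4.77, 4.77 and 4.84 against 4.88, 4.97 and 5.17, and its partner Cox8a differed by 0.25. Cox7b, Ndufa4 and Cox7a2l, which helps join complexes III and IV, differed by 0.07, 0.09 and 0.06. Cox7b2 and Cox8b stayed at 3.89 to 4.72 and 4.45 to 5.33 over all 12 arrays. None but Cox6b2 passed the test.

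**Figure D2:**
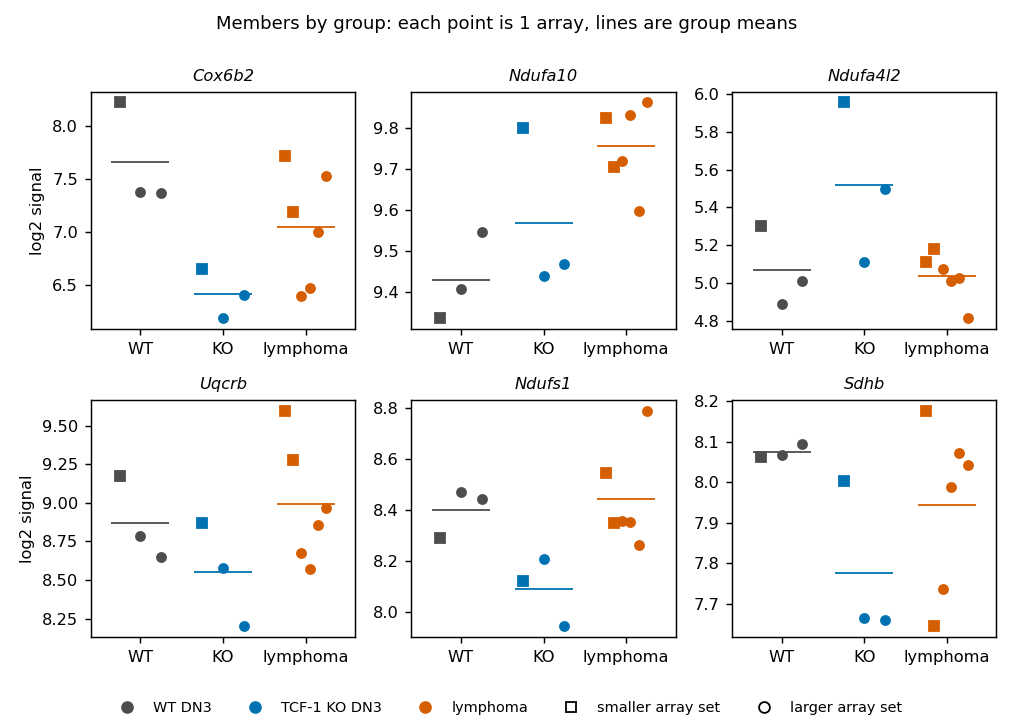
Log2 signal (y axis) of 6 members in each group (x axis); each point is 1 array, horizontal lines are group means, squares are the smaller array set. Cox6b2 lies at 6.19 to 6.66 in KO cells, below all wild-type arrays, and Ndufa10 lies at 9.60 to 9.86 in lymphomas, above all wild-type arrays.

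The second comparison, of lymphomas with wild-type DN3 cells, shares the wild-type arrays with the first. Ndufa10, an accessory subunit of complex I, was the 1 member called. It was at 9.34, 9.41 and 9.55 in wild-type cells and at 9.82, 9.71, 9.72, 9.83, 9.60 and 9.86 in the 6 lymphomas, with no overlap. The rise was 0.33 (SE 0.087, 95% interval 0.14 to 0.52, limma adjusted p = 0.0495), or 1.25-fold, just inside the threshold. It was 0.43 within the smaller array set, with 1 wild-type array, and 0.28 within the larger one, where it was not called (limma adjusted p = 0.331). Leaving out any 1 array ended the call except lymphoma 5, with adjusted p from 0.0373 to 0.226. In KO DN3 cells Ndufa10 was at 9.80, 9.44 and 9.47, and the lymphomas differed from these by 0.19 (adjusted p = 0.292).

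Over all genes 5.82% were called in this comparison, more than among the members. Of the 87 members 55 lay above 0, with a median of 0.05 (-0.01 over all genes). That median ran from -0.02 to 0.13 with 1 array left out and was -0.09 with the Xist class as a term, so its direction turned. Of the members 86 had 95% intervals within 1 log2 unit of 0. With the array set as a term 7.3% of all genes and again 1 member, Ndufa10, were called (adjusted p = 0.0407). Arrays did not overlap for 10.3% of all genes and for Ndufa10 alone among the members. With the Xist class as a term Ndufa10 was not called (0.29, adjusted p = 0.147), and Cox6b2 and Ndufa9, an accessory subunit of complex I, were called lower (-1.03 and -0.38). In that fit 5.79% of all genes were called, and these 2 of the 87 members.

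Cox6b2 spread widely among the lymphomas, at 7.71, 7.19, 6.39, 6.48, 7.00 and 7.52. These overlapped both DN3 groups. The difference was -0.61 from wild-type cells (SE 0.29, limma adjusted p = 0.365) and 0.63 from KO cells (SE 0.27, adjusted p = 0.169). Other members differed from wild-type cells by -0.18 (Ndufb7) to 0.28 (Atp5g2). The Rieske protein gene Uqcrfs1 differed by 0.19, the stalk subunit gene Atp5pb by 0.22 and Cox8a by 0.19. Atp5a1, Atp5b, Uqcrc1, Ndufs1, Ndufv1, Sdha and Sdhc all differed by less than 0.10 in size, and Sdhb by -0.13. Of the 8 DN3 markers 4 were called lower in the lymphomas, and 6 with the array set as a term. The B cell marker Cd79b (-0.95, limma adjusted p = 0.000216) and the stromal marker Epcam (-1.05, limma adjusted p = 0.000522) were also called lower. The part of these markers in the values was not tested.

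The third comparison set the lymphomas against DN3 cells of the same genotype and shares arrays with both others. No member was called, against 6.62% of all genes. An unadjusted limma p under 0.05 was found for 4 of the 87 members (Cox6b2, Cox8c, Ndufa4l2 and Ndufs1), against 24.7% of all genes. The median difference was 0.01 (-0.03 over all genes), with 44 of 87 above 0, and it turned direction with 1 array left out (-0.06 to 0.11). Ndufs1 was at 8.12, 8.21 and 7.94 in KO cells, and at 8.26 at the lowest, 8.36 at the median and 8.79 at the highest in lymphomas. Its difference was 0.35 (SE 0.12, adjusted p = 0.103). It was the 1 member whose arrays did not overlap, as was the case for 13.6% of all genes. Ndufaf4 differed by 0.29 and Cox8c by -0.24. Of the cell markers, Cd3e (0.59) was called higher in lymphomas, and Rag1 (-1.62), Ptcra (-0.64), Cd79b (-0.82), Epcam (-1.06) and Foxn1 (-0.36) lower. With the array set as a term Notch1 (-0.48) was called lower as well. Their part in these values was not tested.

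With the array set as a term 11.4% of all genes and 2 members were called. Ndufa4l2 was lower in lymphomas (-0.49, adjusted p = 0.0266), at 5.11, 5.18, 5.07, 5.01, 5.03 and 4.81, so that only 1 KO array, at 5.11, lay in the range of the lymphomas. Uqcrb, the ubiquinone-binding protein gene of complex III, was higher (0.44, adjusted p = 0.0412). It was at 8.87, 8.58 and 8.20 in KO cells and at 9.60, 9.27, 8.67, 8.57, 8.86 and 8.97 in lymphomas, with overlap. Without that term the limma adjusted p were 0.0813 and 0.230. Uqcrb had 3 rows on the array and stands here with its brightest one; with its rows averaged the difference was 0.46.

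**Figure D3:**
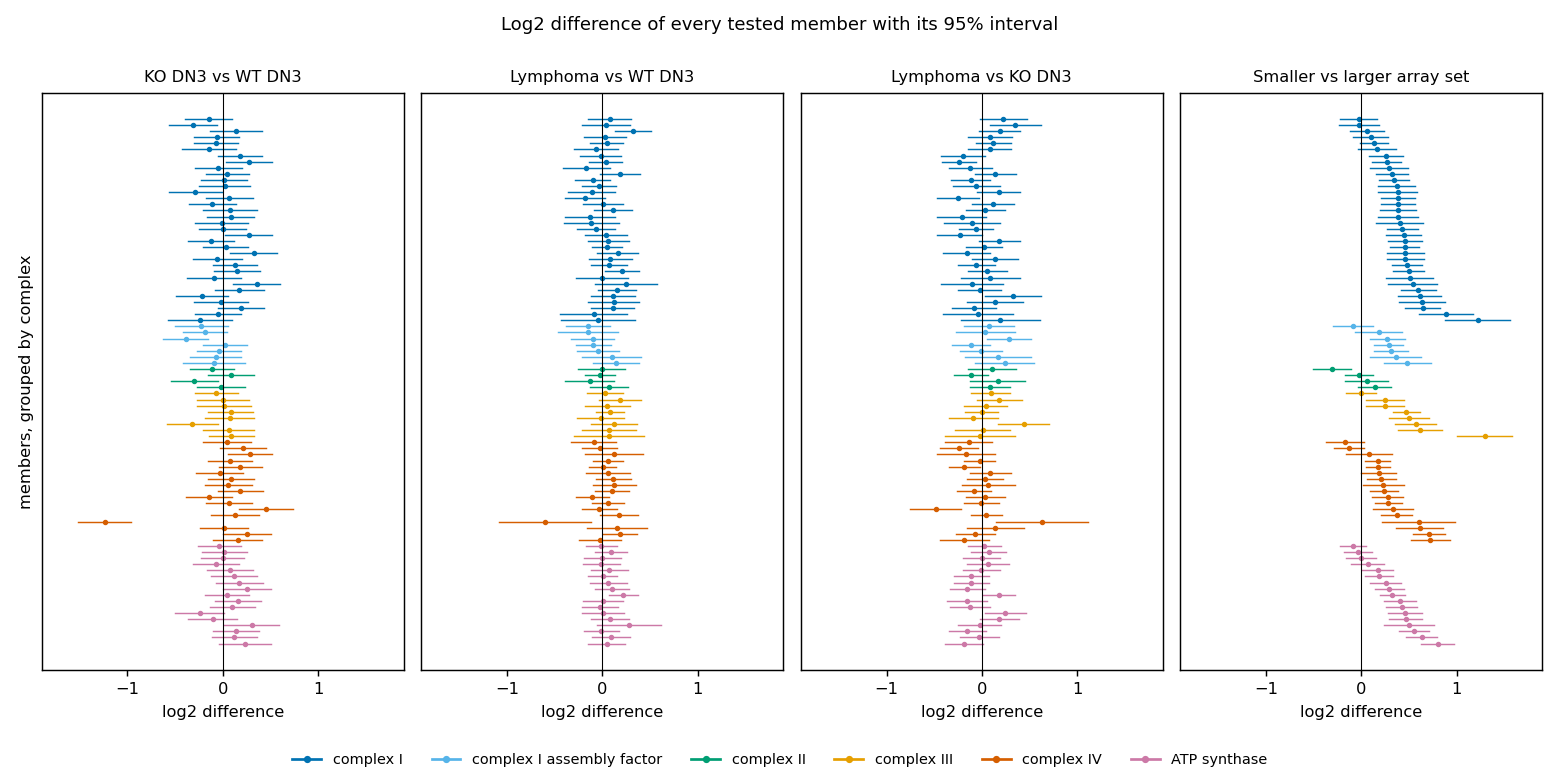
Log2 difference (x axis) and 95% interval of each of the 87 tested members, 1 line per gene grouped and coloured by complex (y axis, ordered by the array set difference). The 3 group comparisons are fitted with the array set as a term, and the right panel is the smaller minus the larger array set with the group as a term. Most intervals span 0 in the first 3 panels, and the median is 0.34 in the last.

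The largest pattern in these genes was between the array sets, which were chosen from the data after seeing them. With the group as a term, 54 members were called higher in the smaller set and 1 lower, and 76 of 87 lay above 0. Over all genes tested 12.2% were called and 7.3% were called higher. The median difference was 0.34 for the members and 0.01 for all genes. For 38 members the 4 arrays of the smaller set all lay above the other 8, and for 6.08% of all genes the sets did not overlap. The labels do not say what the sets stand for.

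Uqcr10, a small subunit of complex III, was at 9.08 (wild-type replicate 1), 9.32 (KO replicate 1), 9.44 and 9.06 (lymphomas 1 and 2) in the smaller set and at 7.36 to 8.18 in the larger one. Its difference of 1.29 (SE 0.13, limma adjusted p = 0.000154), or 2.45-fold, exceeded its difference between any groups, which was at most 0.09. Ndufs5, an accessory subunit of complex I, was at 8.36, 8.65, 8.71 and 8.32 on the same arrays and at 6.75 to 7.62 on the others (1.22, SE 0.16, adjusted p = 0.00063). Ndufb8, in the membrane arm of complex I, followed with 0.89. The ATP synthase gene Atp5mpl, at 11.15 to 11.56 against 10.38 to 10.80, differed by 0.80. Cox5a and Cox8a of complex IV differed by 0.72 and 0.71. In each of these 6 genes all arrays of the smaller set were above all others.

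By complex, the calls were 26 of 34 in complex I, 3 of 7 assembly factors, 5 of 8 in complex III, 9 of 17 in complex IV and 11 of 17 in the ATP synthase, all of them higher. In complex II the 1 call of 4 was lower: Sdha, the flavoprotein of succinate dehydrogenase, was at 8.73, 8.58, 8.93 and 8.67 in the smaller set and 8.83 to 9.30 in the larger (-0.30, limma adjusted p = 0.0459). Sdhb, Sdhc and Sdhd differed by 0.06, -0.02 and 0.14. Within complex I, 23 of 28 accessory subunits and 3 of 6 core subunits were called. The core genes Ndufs1 and Ndufv2 differed by -0.03 each and Ndufv1 by 0.16, while the core genes Ndufs3, Ndufs7 and Ndufs8 were higher by 0.45, 0.34 and 0.40.

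Within the ATP synthase, 1 of the 5 genes of the F1 head and central stalk was called (Atp5e, 0.63). Atp5a1, Atp5b and Atp5c1, which form its catalytic core with the rotating shaft, differed by -0.01, -0.09 and -0.04. All 3 subunit c genes were higher, by 0.41, 0.50 and 0.29, as were 4 of 5 membrane and small subunits and 3 of 4 genes of the peripheral stalk. In complex III the core protein gene Uqcrc1 differed by -0.00, Uqcrc2 by 0.25 and Uqcrfs1 by 0.24, none of them called. In complex IV, 7 of the 9 broadly expressed subunits were higher. Of the 5 tested tissue-restricted isoforms only Cox6b2 was (0.60, adjusted p = 0.0412). Whether these classes of subunit differ from each other was not tested.

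**Figure D4:**
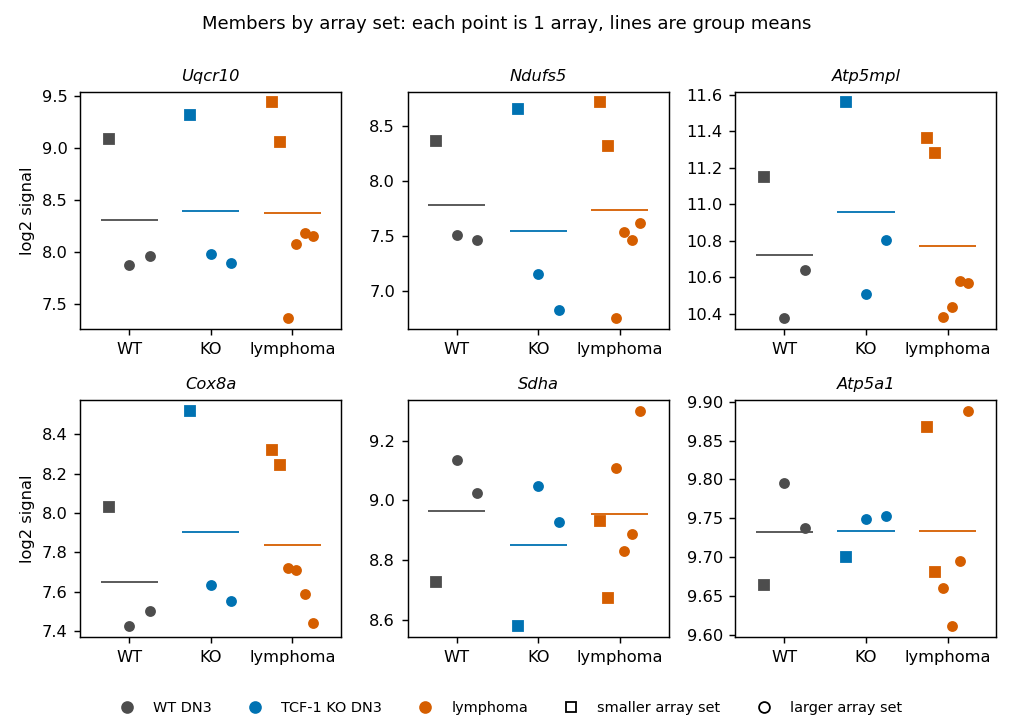
Log2 signal (y axis) of 6 members by group (x axis), 1 point per array, with group means as lines. In Uqcr10, Ndufs5, Atp5mpl and Cox8a the 4 squares of the smaller array set lie above all circles; in Sdha 3 of the 4 lie below all circles, and in Atp5a1 they mix.

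On the 6 DN3 arrays alone 19 members were called, all higher and all among the 55, against 2.45% of all genes. On the 6 lymphomas alone 4 were called higher (Atp5g2, Atp5mpl, Cox8a and Ndufb2), against 0.716% of all genes. The median difference over all 87 members was 0.30 on the DN3 arrays and 0.38 on the lymphomas. Without KO replicate 1, 35 members and 6.08% of all genes were called, and without lymphoma 1, 37 members and 6.74%. The median SD of a member was 0.18 in wild-type, 0.22 in KO and 0.24 in lymphoma arrays, against 0.13, 0.16 and 0.15 over all genes. Within the larger set alone (replicates 2 and 3 of both DN3 groups and lymphomas 3 to 6) it was 0.09, 0.08 and 0.12, against 0.09, 0.12 and 0.14. These SDs rest on fewer arrays and are not directly comparable with those of the whole groups.

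The single lymphomas are each 1 sample and are described without a test, as the difference from the median of the other 5. In lymphoma 1, 84 of 87 members lay above 0, with a median of 0.45, and Uqcr10 (1.29), Ndufs5 (1.18) and Ndufb8 (1.10) stood farthest out. In lymphoma 2, 69 lay above 0 with a median of 0.18, and Uqcr10 (0.91), Ndufs5 (0.78) and Atp5g2 (0.77) led. Both belong to the smaller array set. In lymphoma 3, 13 lay above 0 (median -0.12), with Ndufs5 at -0.87, Uqcr10 at -0.82 and Cox6b2 at -0.79. Lymphoma 4 had 9 above 0 (median -0.14), with Cox7a2 and Cox6b2 at -0.71 each and the assembly factor Ndufaf1 at -0.67. Lymphoma 5 lay nearest to the others in its leading genes, with 23 above 0 (median -0.06) and Cox4i2 (-0.38), Ndufaf7 (-0.31) and Ndufa9 (-0.27) farthest out. Lymphoma 6 had 63 above 0 (median 0.06), with Cox6b2 at 0.52, Ndufs1 at 0.44 and Sdha at 0.41.

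Set only against the other lymphomas of the larger set, the medians of lymphomas 3 to 6 were -0.07, -0.08, 0.03 and 0.12. Lymphoma 6 then had 75 of 87 members above 0, and Cox6b2 was 1.04, Cox4i2 0.52 and Ndufs1 0.44 above the median of the other 3. Lymphoma 3 had Uqcr10 and Ndufs5 at -0.79 each and Ndufb8 at -0.63. In lymphoma 4 Ndufaf1, Cox7a2 and Cox6b2 were at -0.61, -0.60 and -0.52.

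Genes of the same pathway outside the rule were read from lists, in fits without the array set as a term unless stated. The 76 tested mitochondrial ribosomal protein genes, which translate the subunits encoded in mitochondria, had no call in any of the 3 group comparisons, with medians of -0.05, -0.02 and 0.02. Between array sets 38 were higher and 1 lower, with a median of 0.31. Of 56 cytosolic ribosomal protein genes, Rpl24 (0.34) and Rps25 (0.31) were higher in lymphomas than in KO DN3 cells (limma adjusted p = 0.0329 and 0.0389), none was called in the other group comparisons, and 18 were higher in the smaller array set. Among 19 genes of the TCA cycle and pyruvate entry, Suclg2, a succinyl-CoA ligase subunit, rose by 0.62 (SE 0.13, adjusted p = 0.0175) in lymphomas against KO cells. Dld, the shared dehydrogenase subunit of the keto-acid complexes, rose by 0.58 (SE 0.15, adjusted p = 0.0349). In this list 2 genes were higher and 2 lower between array sets, with a median of -0.06. The 36 assembly factors outside the rule, 19 coenzyme Q and cytochrome c genes, 19 regulators of mitochondrial biogenesis and 10 carriers and ATP synthase regulators had no call between groups. The biogenesis regulators had medians of -0.19, -0.10 and 0.08 in the 3 comparisons, with 3, 4 and 16 of 19 above 0. The medians of the other 3 lists ran from -0.10 to 0.15. Whether a list moved as a whole was not tested. With the array set as a term, Mrpl22 of the mitochondrial ribosomal list was called lower in KO than in wild-type cells (-0.57) and Mrpl52 higher in lymphomas than in wild-type cells (0.79). In lymphomas against KO cells Mrpl52, Mrpl32 and Mrps25 were then called higher and Mrps6 and Mrpl12 lower. Of the TCA cycle list, Suclg2 was then also lower in KO than in wild-type cells (-0.51) and Dlst higher in lymphomas than in wild-type cells (0.40). In the same fit the assembly factor gene Uqcc3 was higher in lymphomas than in KO cells (0.63). Against wild-type cells, the lymphomas were then lower in Tefm, a mitochondrial transcription elongation factor (-0.63), and higher in Slc25a4, an ADP/ATP carrier (0.44). The coenzyme Q and cytochrome c genes had no call between groups in either fit. Between array sets 9 of these assembly factors were higher and 2 lower, 2 coenzyme Q and cytochrome c genes were higher, no biogenesis regulator was called, and the channel gene Vdac3 and the ATP synthase inhibitor gene Atpif1 were higher, by 0.49 and 0.32.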

How the data were processed

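Values are the log2 signals that the authors deposited, 1 per transcript cluster, summarised by RMA with Partek as named in the submitters' processing notes. For both, no version is stated in the sources used here, and the log base was read from the values. Picogram to nanogram amounts of RNA were amplified with a NuGEN kit, per the labels' protocols. RMA scales all arrays to 1 distribution, so a change in total RNA cannot be seen. Of 35556 rows, 21789 had 1 symbol, and the brightest row stood for a gene (17 members had several rows). The 25th percentile of gene means (log2 4.78) was the lower limit of brightness, and 14953 genes passed. Each comparison was fitted on its 2 groups with limma 3.58.1 (R 4.3.3), two-sided, tested on simulated data. The number of arrays limits the precision. The fit between array sets had the group as a term. The numbers 1 to 3 were used to block wild-type and KO arrays, since their deviations from group means correlated at 0.51, 0.42 and 0.25. In the lymphoma comparisons this block kept only lymphomas 1 to 3. No label states a pairing. With the wild-type and KO arrays of its number, lymphoma 1 correlated at 0.44 and 0.38, lymphoma 2 at -0.22 and -0.26 and lymphoma 3 at 0.15 and 0.11. Lymphoma 2 correlated at 0.45 and 0.385 with wild-type and KO replicate 1, which share its array set but not its number.

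The members and lists were chosen with earlier results of these data known. Genes were named by rule: called members, the largest differences per complex, the 3 members farthest out per lymphoma and a fixed set of catalytic subunits, assembly factors and isoforms. Atp5c1, Atp5d, Atp5e, Atp5o, Atp5pb, Cox5a, Ndufb2, Ndufb5, Ndufs3, Ndufs7, Ndufs8, Ndufv2 and Uqcrc2 were named after their values were seen.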

Additional observations from a re-analysis of the deposited data

Results flagged for a closer look

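Lymphoma 1 stood apart from the other 5 lymphomas in 4 of the 89 members, where its gap to the next lymphoma was a large part of the whole range (Dixon's 95% value). It was the highest lymphoma in each: Atp5d at 8.16 (next 7.92), Atp5o at 9.69 (next 9.40), Ndufb5 at 10.37 (next 9.93) and Ndufs7 at 7.16 (next 6.82). These 4 are 4.49% of the members, and chance flags about 1 in 20. Lymphoma 1 belongs to the smaller array set.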

How the results depend on the processing

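No difference of a member that was called changed direction under the alternatives run. Between KO and wild-type DN3 cells, 0 members were called with 1 fit to all 12 arrays (1.87% of all genes) and with the Xist class as a term (0.843%). With the replicate block 4 were called (9.23%). Leaving out 1 array gave 0 to 1 (0.381% to 2.96%), with 0 without KO replicate 3 (0.843%). Between lymphomas and wild-type cells, 0 were called with no filter (4.29% of all genes), with arrays centred (5.73%) and with a trended robust variance (5.73%). The 1 fit to all 12 arrays, the replicate block and the larger array set alone also gave 0 (5.91%, 5.77% and 3.67%). The Xist class as a term gave 2 (5.79%). Leaving out 1 array gave 0 to 1 there (3.75% to 5.83%). Between lymphomas and KO cells, 2 were called with the array set as a term (11.4% of all genes) and 1 with the replicate block (6.68%). With 1 array left out 0 to 1 were called (2.88% to 9.10%). The 1 call was without KO replicate 2 (Ndufa4l2, -0.69), where 9.10% of all genes were called. In place of the 55 members (12.2% of all genes) called between array sets, 19 (2.45%) were called on the DN3 arrays alone and 4 (0.716%) on the lymphomas alone. With 1 array left out it was 35 to 53 (6.08% to 12.4%). The cause of these changes was not tested, and fewer arrays were fitted where arrays were left out. The medians by complex were rerun only with arrays centred on their median. Their KO mean then moved from 0.029 to -0.0018 in complex I and from 0.015 to -0.015 in complex III, and the other means kept their sign. These moves lay within the spread between replicates, which includes that between array sets. The number of members stayed at 89 with updated symbols. The replicate block changed the calls of Ndufaf4, Ndufa4l2 and Ndufb3 (KO against wild-type) and Ndufa10 (lymphoma against wild-type). It also changed that of Uqcrb (lymphoma against KO, 0.63, limma adjusted p = 0.0179). In both lymphoma comparisons the block kept only lymphomas 1 to 3. Of these, lymphomas 1 and 2 lie in the smaller array set, against KO replicate 1 alone among the KO arrays. Uqcrb averaged 9.23 in that set and 8.66 in the larger one, and the part of the set in this call was not tested. No label says that the numbers pair the arrays. The alternatives for the array sets were chosen after seeing the data.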
